A study of Mus musculus with 9 samples.

Results

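The 42 genes described here encode the core switches of the cell division cycle: 9 cyclins of the cycle (Ccna2, Ccnb1, Ccnb2, Ccnd1, Ccnd2, Ccnd3, Ccne1, Ccne2 and Ccnf), cyclins G1 and G2, 5 cyclin-dependent kinases (Cdk1, Cdk2, Cdk4, Cdk6 and Cdk7) and the CIP/KIP and INK4 kinase inhibitors. The others are the phosphatase Cdkn3, the E2F and RB families, Trp53 with Mdm2, and the kinases and phosphatases that act on CDK1 and on damage checkpoints. They were chosen by gene symbol. All 42 were found among the 24964 genes of the count table, and all 42 were among the 14347 genes that passed the filter on low counts. The study measured bulk RNA-seq of mouse hearts in 3 groups of 3 libraries: hearts 7 d after myocardial infarction (MI 7 d), hearts 28 d after it (MI 28 d) and sham hearts. Infarction was produced by tying off the left anterior descending coronary artery, while sham mice had the chest operation without the tie. The mice were all male C57BL/6JR animals under isoflurane. Their age is given as 8 weeks for every library, both 7 d and 28 d after infarction, so it may not be the age at collection. The tissue is labelled only as heart, so the share of infarct, border and remote muscle in each library is not known. The sources used here do not give the day on which sham hearts were taken. The labels number 3 libraries a group and do not say whether each library is a single mouse. The p-values here measure the spread between these libraries, estimated for each gene over all 9 of them.

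As background, cells enter the cycle when D cyclins with CDK4 or CDK6 phosphorylate RB proteins, which frees the activating E2F factors to switch on cyclin E, cyclin A and the enzymes of DNA copying. Cyclin A and cyclin B with CDK2 and CDK1 then carry cells through S phase and into mitosis, while CIP/KIP and INK4 inhibitors hold these kinases back. Adult cardiomyocytes of mice have largely left the cycle, whereas fibroblasts, endothelial cells and immune cells of an infarcted heart can divide.

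The libraries held 12351525 to 19238101 counts, with 18355720 to 19238101 in MI 7 d, 15300344 to 15770389 in MI 28 d and 12351525 to 13629120 in sham hearts. Levels are given as CPM, the count of a gene relative to the TMM-scaled total of its library, in the order of replicates 1, 2 and 3. Log2 fold changes are given with their standard error. The 10 cardiomyocyte markers were all detected in every group, and their summed level was 21604 to 26929 CPM in MI 7 d hearts, 47297 to 77137 CPM in MI 28 d hearts and 119056 to 122115 CPM in sham hearts. Fibroblast markers summed to 35518 to 46553, 6194 to 12152 and 2209 to 2269.9 CPM in the same order of groups, and monocyte and macrophage markers to 3912 to 4896, 834 to 1368 and 490.4 to 549 CPM. In bulk tissue, fewer cells of a type and less RNA per cell cannot be told apart. MI 7 d replicate 3 and MI 28 d replicates 1 and 3 held 122 to 217 CPM of the adipocyte gene Adipoq, against at most 3.12 CPM in the other 6 libraries, and MI 28 d replicate 3 also stood apart for mesothelial markers (summed level 582 CPM) and Schwann cell and neuron markers (139 CPM). Of the endothelial markers, 5 of 7 were lower at 7 d and 6 of 7 at 28 d, and of the T and NK cell markers, 8 of 8 were higher at 7 d and 6 of 8 at 28 d. The part of these shifts in any member's level was not tested. Leaving out the 3 Adipoq-rich libraries leaves MI 28 d with 1 library that is assumed to vary like the other groups, so counts of calls from that fit are not given. The same assumption stands behind every p-value without these libraries given below.

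At 7 d after infarction, 26 of the 42 members were higher than in sham hearts, 8 were lower and 8 did not pass. Calls are those with an adjusted p under 0.05 in edgeR's quasi-likelihood test, where the Benjamini-Hochberg procedure was run on all 14347 genes. The higher set held the S phase and mitotic cyclins, Cdk1, E2f1 and E2f2 and most CDK inhibitors, and the lower set held cyclins D1, D2 and G1, E2f6, Cdkn1c, Rb1, Rbl2 and Mdm2, of which Rb1 and Mdm2 turned to above 0 when libraries were scaled by size alone. Of all tested genes, 39.0% were higher and 35.4% lower in the same comparison, and the median log2 fold change was 0.79 over the members and 0.064 over all tested genes. A change of more than 2-fold was seen for 16 of the higher and 4 of the lower members.

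At 28 d, 14 members were higher and 4 lower than in sham hearts, with 24 not called, beside 29.5% of all tested genes higher and 25.6% lower. Wee1, Cdc25b, E2f1, Cdk1, Ccnf, Chek1, Cdkn2a and Cdkn2b were over 2-fold higher, and none of the 4 lower members (Ccng1, Cdkn1c, E2f6 and Chek2) was over 2-fold lower. Here too the share of all tested genes past 2-fold is not given. The members' median log2 fold change was 0.15, against 0.054 over all tested genes. MI 28 d set directly against MI 7 d gave 8 members higher and 25 lower, beside 29.1% and 26.1% of all tested genes, with a median of -0.52 over the members and 0.033 over all. The comparisons share libraries, so they are not independent. Where another setting, or leaving out a library, ended or made a call, the adjusted p under it is given beside the gene with its range over the 14 or 15 alternatives tried. Over the 3 comparisons, 12 members were higher at 7 d, not called at 28 d and lower at 28 d than at 7 d. Another 11 were higher at both times and lower at 28 d than at 7 d, and 3 (Ccng1, Cdkn1c and E2f6) were lower at both times and higher at 28 d than at 7 d. Ccnd2 and Chek2 changed in opposite directions at the 2 times, and 6 members (Ccnd3, Ccne2, Cdk7, Cdkn2d, E2f3 and E2f4) passed in no comparison. The shares of all tested genes with these patterns are not given here. With libraries scaled by their total counts alone, the median log2 fold change over all genes became 0.40 at 7 d and 0.30 at 28 d, and the share of calls that were higher became 67.4% at 7 d and 74.0% at 28 d, against 52.5% and 53.5% with TMM.

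**Figure D1:**
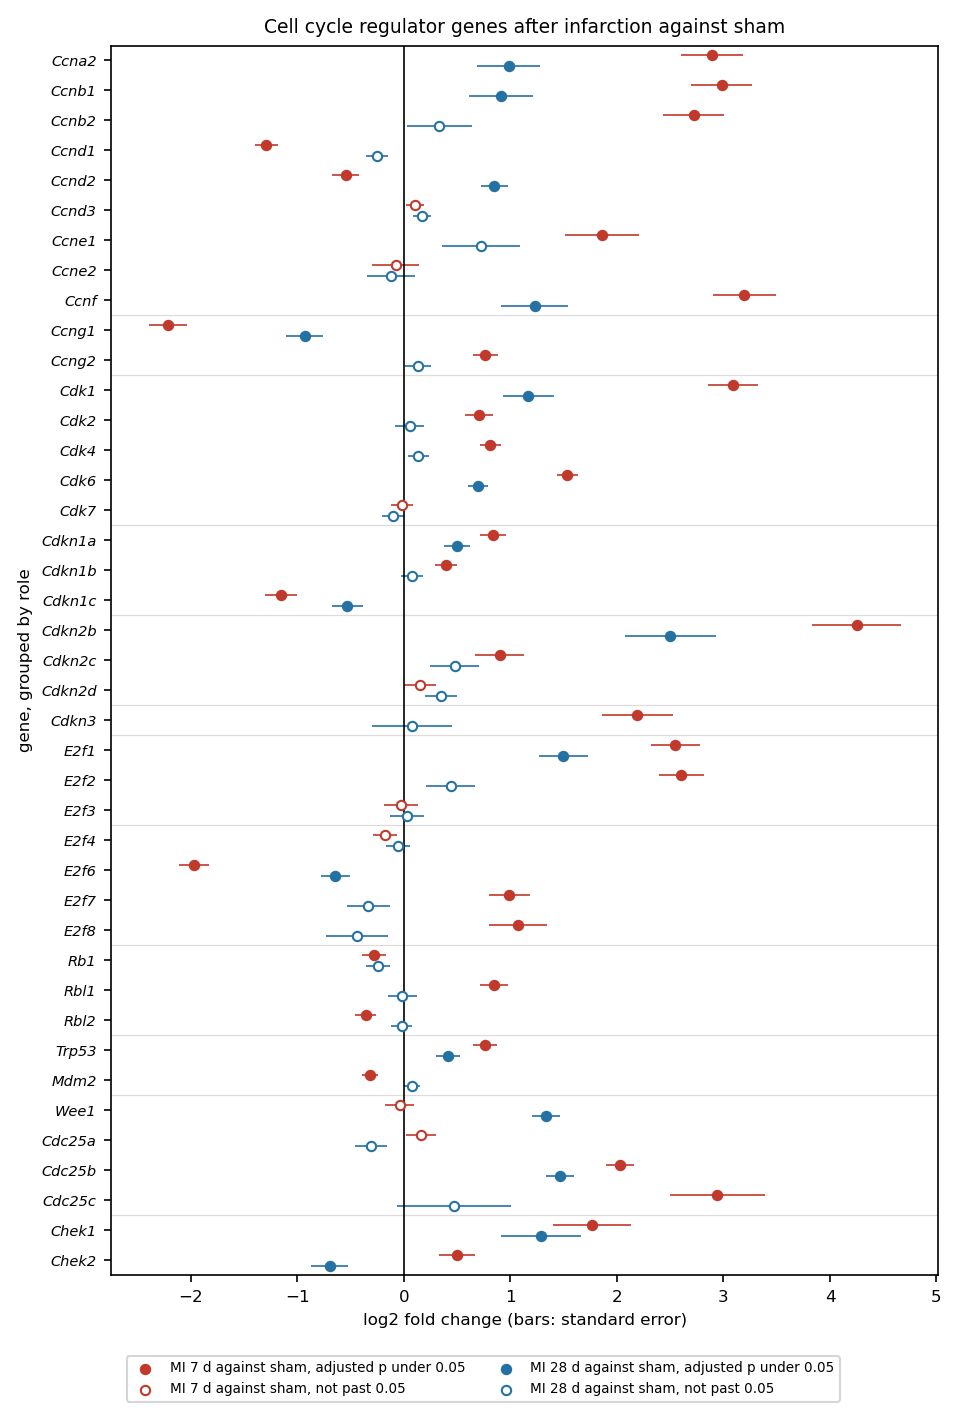
The log2 fold change of each gene against sham hearts, with its standard error, is shown at MI 7 d (red) and MI 28 d (blue), grouped by role, and filled points passed an adjusted p of 0.05. Cdkn2a is left out because its sham libraries held 2, 0 and 0 counts. The mitotic genes lie far to the right at 7 d and closer to 0 at 28 d, Ccng1 and E2f6 lie to the left at both times, and Ccnd2 and Chek2 have filled points on both sides of 0.

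Levels per length, as CPM per kilobase of exon over the GENCODE M21 gene models, spanned several orders of magnitude. The gene models used for the counting are not named in the sources used here. Exon lengths, close ranks and the exon overlaps given below may therefore differ from those of the counting. Ccng1, a p53 target that works with the phosphatase PP2A, was the highest member in all 3 groups, with 79.9 ± 6.72 (SD, n = 3) in MI 7 d hearts, 195 ± 53.9 in MI 28 d hearts and 371 ± 8.24 in sham hearts. The next members in sham hearts were E2f6 at 23.9 ± 0.284, Ccnd1 at 23.1 ± 0.867, Ccnd2 at 18.3 ± 1.32 and Cdk4 at 17.2 ± 0.638. In MI 7 d hearts the order below Ccng1 was Cdk4 at 30.1 ± 2.40, Cdkn1a at 18.9 ± 2.22 and E2f4 at 14.03 ± 0.875, while E2f6 ranked 17 of the 42. In MI 28 d hearts Ccnd2 came after Ccng1 with 32.8 ± 3.64, ahead of Ccnd1 at 19.4 ± 2.58 and Cdk4 at 18.8 ± 2.20. Among the mitotic genes, Ccnb2 had 6.93 ± 1.43 in MI 7 d hearts, rank 16 of the 42, 1.32 ± 0.442 in MI 28 d hearts and 1.04 ± 0.247 in sham hearts. Cdk1 had 3.49 ± 0.506 in MI 7 d hearts, 0.920 ± 0.203 in MI 28 d hearts and 0.409 ± 0.105 in sham hearts. Cdc25c and Cdkn2a were at the bottom of the sham order, at 0.0546 ± 0.0382 and 0.0496 ± 0.0859.

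**Figure D2:**
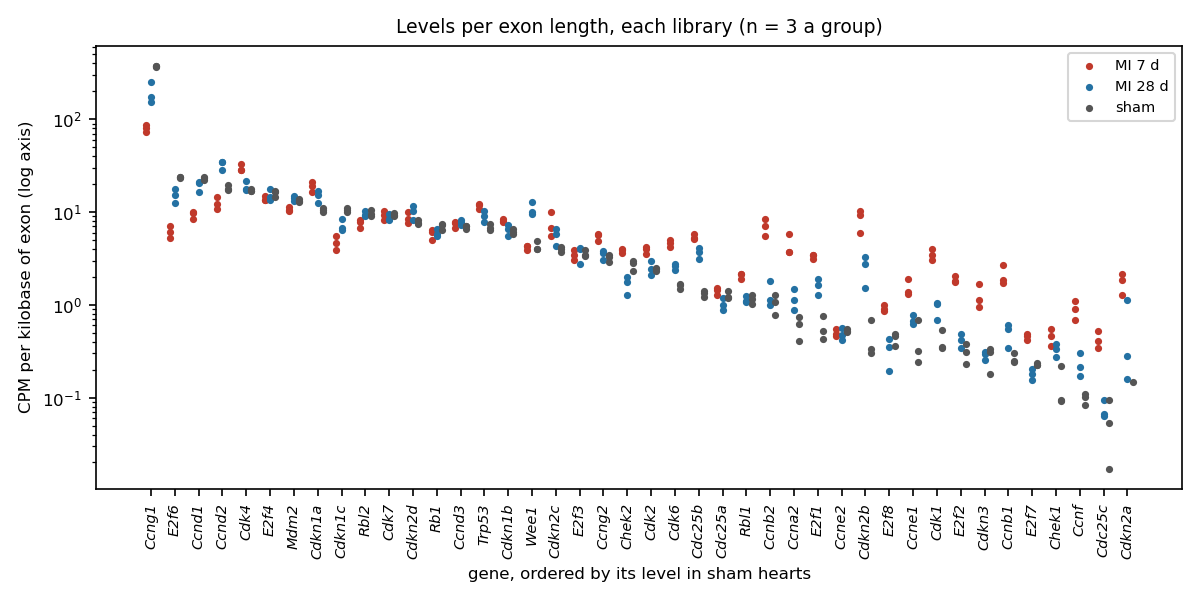
Each point is 1 library's CPM per kilobase of exon (log axis) of a gene in MI 7 d (red), MI 28 d (blue) or sham (grey) hearts, with genes ordered by their sham mean, and the 2 sham libraries at 0 for Cdkn2a are not drawn. Ccng1 stands above the other genes in all groups, and many genes on the right, such as Cdk1, Ccnb1 and Ccnf, have MI 7 d points far above the sham points, while those of Ccne2 lie close to them.

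The RefSeq promoter table (GRCm38.p6, the assembly also called mm10, which the submitters' processing notes name) held 39 promoters for 33 of the 42 members, each from 250 bases before to 50 bases after the gene start. They were searched on both strands for 4 short motifs. GCGGGAA and TTTGGCG are bound by E2F factors. The others are TTTGAA, the core of the cell cycle homology region (CHR) read by the DREAM and MuvB complexes, and CCAAT, bound by NF-Y. An E2F-type motif was found in 23.1% of the member promoters and 5.99% of all 32851 promoters of the table. TTTGAA was found in 23.1% and 17.9%, CCAAT in 56.4% and 37.4%, and TTTGAA together with CCAAT in 17.9% and 6.95%. Among the 28 promoters of members higher at 7 d, 6 held both TTTGAA and CCAAT and 7 (25.0%) held an E2F-type motif. Among the 7 promoters of members not called at 7 d, 1 held both TTTGAA and CCAAT and 2 (28.6%) held an E2F-type motif, and among the 4 of members lower at 7 d, 0 held either. Not all members with large 7 d rises hold these motifs: the Ccnb1 promoter has CCAAT at -99 and -67 and no TTTGAA, and that of Cdkn2b has TTTGAA at -161 and no CCAAT. The promoters of Cdk1, Ccnb2 and Ccnf are shown as examples that hold TTTGAA close to the gene start and more than 1 CCAAT motif upstream of it. A promoter of E2f2 has the same layout, with TTTGAA at -31 and CCAAT at -174, -133 and -53. So does a promoter of E2f3, a gene that passed in no comparison, with TTTGAA at -23 and CCAAT at -145, -109 and -81. Counting the first base of the gene as position 1, TTTGAA starts at -15 and -71 in Cdk1, at 5 and -167 in Ccnb2 and at -14 and -130 in Ccnf. Chek1 is shown for its TTTGGCG at 40 and GCGGGAA at 44, which overlap, and Ccng1, the member with the largest fold fall at 7 d, for 4 CCAAT motifs without either of the others. A match is only a run of letters and is no evidence of binding. Sequences are given 5′ to 3′ along the strand of the gene, with every motif match in capitals (ATTGG is CCAAT read on the other strand).
Cdk1, chr10:69352863-69353162, minus strand: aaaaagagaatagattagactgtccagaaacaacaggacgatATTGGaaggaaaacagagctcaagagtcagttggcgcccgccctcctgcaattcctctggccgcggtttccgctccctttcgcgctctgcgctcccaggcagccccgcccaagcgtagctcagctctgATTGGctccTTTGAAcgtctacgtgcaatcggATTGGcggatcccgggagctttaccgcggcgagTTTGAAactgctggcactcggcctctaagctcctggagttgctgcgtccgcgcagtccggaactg
Ccnb2, chr9:70421505-70421804, minus strand: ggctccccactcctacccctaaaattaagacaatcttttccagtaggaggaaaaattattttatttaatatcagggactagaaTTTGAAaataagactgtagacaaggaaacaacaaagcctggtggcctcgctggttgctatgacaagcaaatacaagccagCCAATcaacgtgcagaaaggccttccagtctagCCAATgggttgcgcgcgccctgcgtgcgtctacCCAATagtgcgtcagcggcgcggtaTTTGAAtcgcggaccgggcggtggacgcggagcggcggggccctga
Ccnf, chr17:24251360-24251659, minus strand: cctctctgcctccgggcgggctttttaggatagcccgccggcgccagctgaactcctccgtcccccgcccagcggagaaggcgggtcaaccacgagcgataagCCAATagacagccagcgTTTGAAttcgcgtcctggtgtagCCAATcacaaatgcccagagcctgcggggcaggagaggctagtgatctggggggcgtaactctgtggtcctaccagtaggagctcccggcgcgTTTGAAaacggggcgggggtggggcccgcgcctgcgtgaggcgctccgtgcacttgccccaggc
Chek1, chr9:36726609-36726908, minus strand: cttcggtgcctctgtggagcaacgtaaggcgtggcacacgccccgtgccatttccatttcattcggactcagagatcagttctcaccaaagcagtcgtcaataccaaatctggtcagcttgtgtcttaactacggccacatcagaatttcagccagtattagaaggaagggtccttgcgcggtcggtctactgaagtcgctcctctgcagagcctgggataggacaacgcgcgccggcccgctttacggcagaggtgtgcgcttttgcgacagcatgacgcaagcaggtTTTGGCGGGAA
Ccng1, chr11:40755237-40755536, minus strand: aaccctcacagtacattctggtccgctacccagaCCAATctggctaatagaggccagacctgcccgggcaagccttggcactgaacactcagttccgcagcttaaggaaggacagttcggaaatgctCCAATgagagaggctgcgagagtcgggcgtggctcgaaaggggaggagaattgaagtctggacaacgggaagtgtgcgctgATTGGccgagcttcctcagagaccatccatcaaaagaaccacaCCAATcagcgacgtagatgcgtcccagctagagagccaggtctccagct

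The S phase and mitotic cyclins and their kinase rose at 7 d. Ccna2, the cyclin A gene of dividing somatic cells, had 23.5, 15.1 and 15.1 CPM at MI 7 d, 4.64, 6.08 and 3.59 at MI 28 d and 1.66, 3.03 and 2.53 in sham. Every MI 7 d library was above every other library, and the gene was 7.43-fold higher (log2 fold change 2.89 ± 0.29, edgeR adjusted p = 1.13e-05) than in sham hearts. Ccnb1, the main cyclin of mitotic entry, had 11.4, 7.32 and 7.84 CPM at MI 7 d, 2.59, 2.29 and 1.45 at MI 28 d and 1.05, 1.29 and 1.01 in sham. It was 7.92-fold higher (log2 fold change 2.99 ± 0.29, edgeR adjusted p = 8.26e-06) at 7 d, with no overlap between the 3 groups. Ccnb2, the second B cyclin, had 12.7, 8.36 and 10.7 CPM at MI 7 d, 1.53, 2.79 and 1.74 at MI 28 d and 1.66, 1.19 and 1.94 in sham. It was 6.59-fold higher (log2 fold change 2.72 ± 0.29, edgeR adjusted p = 1.54e-05) at 7 d. Here the MI 28 d and sham values overlapped (log2 fold change 0.33 ± 0.30, edgeR adjusted p = 0.377). Ccnf, an F-box cyclin that directs proteins to degradation and activates no CDK, had 8.65, 5.39 and 7.02 CPM at MI 7 d, 1.33, 2.36 and 1.68 at MI 28 d and 0.785, 0.643 and 0.845 in sham. Its 7 d fold change was the largest of the cyclins, 9.17-fold higher (log2 fold change 3.20 ± 0.30, edgeR adjusted p = 6.66e-06), and it was 2.34-fold higher (log2 fold change 1.23 ± 0.32, edgeR adjusted p = 0.00884) at 28 d. Cdk1, the kinase of mitosis, had 19.9, 14.9 and 16.9 CPM at MI 7 d, 3.38, 5.08 and 5.15 at MI 28 d and 2.62, 1.75 and 1.69 in sham. It was 8.51-fold higher (log2 fold change 3.09 ± 0.24, edgeR adjusted p = 1.88e-06) at 7 d. Cdk1 was 2.25-fold higher (log2 fold change 1.17 ± 0.24, edgeR adjusted p = 0.00284) at 28 d, again without overlap.

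At 28 d the smaller rises of Ccna2 and Ccnb1 were close to the threshold. Ccna2 was 1.98-fold higher (log2 fold change 0.98 ± 0.30, edgeR adjusted p = 0.0187) than in sham hearts, and its adjusted p was 0.0536 with limma voom, 0.0706 without sham replicate 1 and 0.0668 without MI 28 d replicate 2 (range 0.00495 to 0.0706). Ccnb1 was 1.88-fold higher (log2 fold change 0.91 ± 0.30, edgeR adjusted p = 0.0281). That adjusted p was 0.0526 to 0.0987 with limma voom, without sham replicate 1, sham replicate 3, MI 28 d replicate 1, MI 28 d replicate 2 and the 3 Adipoq-rich libraries (range 0.00627 to 0.0987). Between the infarct times all 5 genes were lower at 28 d, by 3.75-fold for Ccna2, 4.21-fold for Ccnb1, 5.24-fold for Ccnb2, 3.91-fold for Ccnf and 3.78-fold for Cdk1 (edgeR adjusted p between 6.87e-05 and 2.54e-04). The sham levels behind these folds were low, with 7 to 10 counts a library for Ccnf and 19 to 33 for Ccna2. Of the exon bases of Ccna2, 12.5% overlap those of Exosc9 on the other strand, and whether the counting used strand is not given in the sources used here. Opposite-strand genes also overlap 0.547% to 4.11% of the exon bases of Ccnd2, Ccnd3, Cdk2, Cdk6, E2f7 and Cdc25b, and larger overlaps are given with the genes concerned. Fibroblast markers (8 of 8 higher at 7 d, 7 of 8 at 28 d) and monocyte and macrophage markers (9 of 9 and 8 of 9) moved in the same direction, with the summed levels given above, and their part in the result was not tested.

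The E cyclins, which pair with CDK2 at the start of S phase, parted. Ccne1 had 5.0, 3.46 and 3.65 CPM at MI 7 d, 2.06, 1.67 and 1.79 at MI 28 d and 1.83, 0.643 and 0.845 in sham. It was 3.63-fold higher (log2 fold change 1.86 ± 0.35, edgeR adjusted p = 8.16e-04) at 7 d with no overlap. At 28 d its values overlapped with sham (log2 fold change 0.73 ± 0.36, edgeR adjusted p = 0.117). The adjusted p was 0.0393 with library size alone and 0.0111 without sham replicate 1 (range 0.0111 to 0.386). It was 2.19-fold lower (edgeR adjusted p = 0.0134) at 28 d than at 7 d, and this adjusted p was 0.0594 with limma voom and 0.0520 without MI 7 d replicate 1 (range 0.00415 to 0.0594). Ccne2 lay between 1.63 and 1.92 CPM in MI 7 d hearts, 1.45 and 1.98 CPM in MI 28 d hearts and 1.77 and 1.93 CPM in sham hearts, and passed in no comparison. Of its exon bases, 17.4% overlap the opposite-strand gene Ints8.

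**Figure D3:**
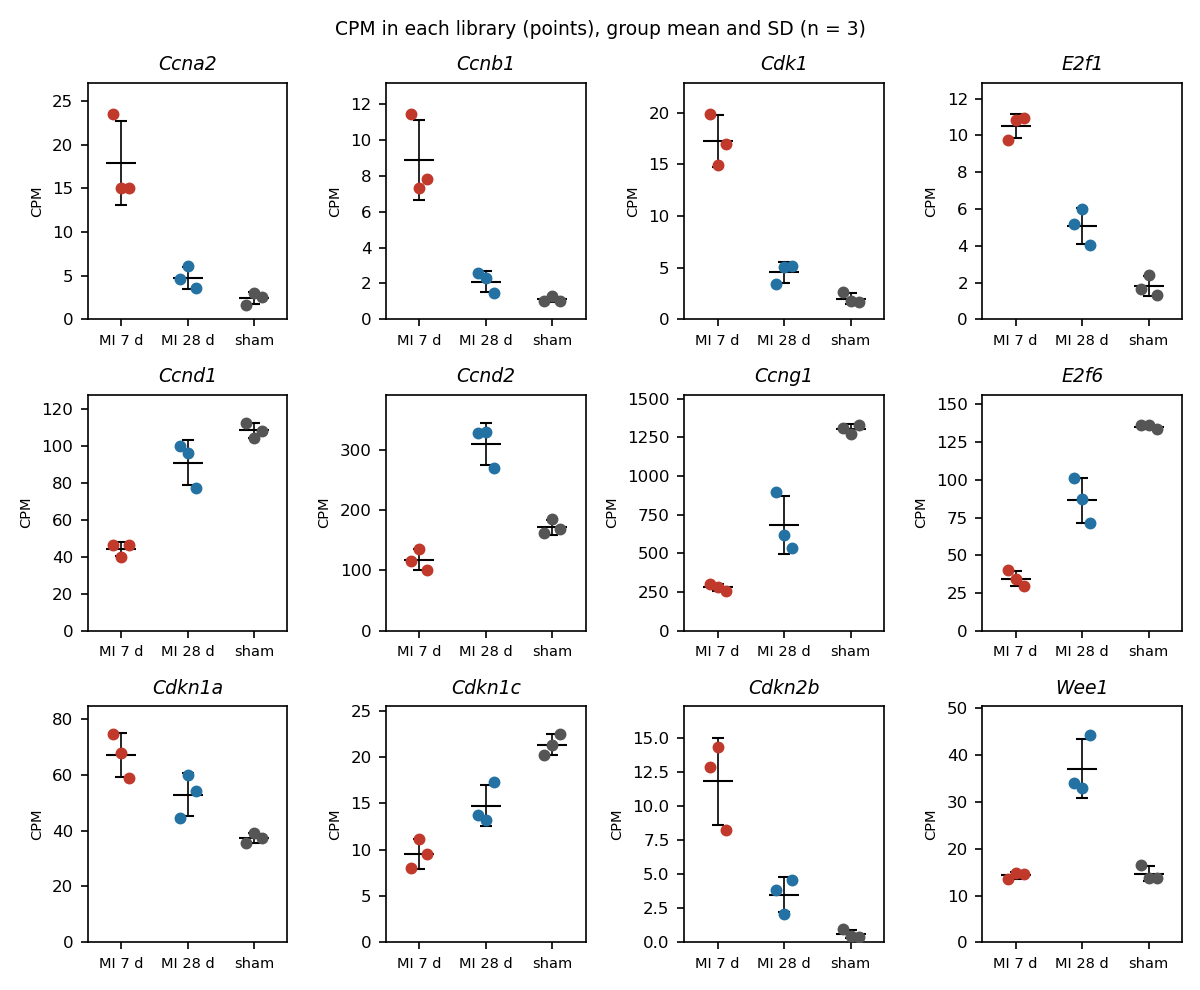
CPM of 12 members in each library (points) of MI 7 d, MI 28 d and sham hearts, with the group mean and SD (n = 3) and axes that start at 0. Ccna2, Ccnb1, Cdk1 and E2f1 peak at MI 7 d, Ccng1, E2f6, Ccnd1 and Cdkn1c are lowest there, Ccnd2 is below sham at MI 7 d and above it at MI 28 d, and Wee1 is high at MI 28 d.

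The D cyclins switch on CDK4 and CDK6 in response to growth signals. Ccnd1 and Ccnd2 fell at 7 d, and Ccnd2 was higher than sham at 28 d. Ccnd1 had 46.3, 40.0 and 46.8 CPM at MI 7 d, 99.9, 96.2 and 77.3 at MI 28 d and 113, 105 and 108 in sham. All MI 7 d libraries lay below all others, and Ccnd1 was 2.45-fold lower (log2 fold change -1.29 ± 0.11, edgeR adjusted p = 3.19e-06) at 7 d. At 28 d every library was still under the lowest sham library, but the difference missed the threshold (log2 fold change -0.25 ± 0.11, edgeR adjusted p = 0.0658). Set against 7 d, Ccnd1 was 2.05-fold higher (edgeR adjusted p = 4.80e-05) at 28 d. The 28 d difference from sham passed in 4 alternatives, at 0.0282 to 0.0427 with DESeq2, with DESeq2-type size factors, with limma voom and without MI 28 d replicate 1 (range 0.0282 to 0.918). Ccnd2 had 115, 136 and 101 CPM at MI 7 d, 328, 329.5 and 269 at MI 28 d and 161, 185 and 169 in sham. It was 1.46-fold lower (log2 fold change -0.55 ± 0.13, edgeR adjusted p = 0.00298) at 7 d. Ccnd2 was 1.80-fold higher (log2 fold change 0.85 ± 0.13, edgeR adjusted p = 5.10e-04) at 28 d, and the groups did not overlap. The direct comparison of MI 28 d with MI 7 d gave 2.63-fold higher (log2 fold change 1.39 ± 0.13, edgeR adjusted p = 2.51e-05). The 7 d fall of Ccnd2 had an adjusted p of 0.110 with library size alone (range 2.55e-05 to 0.110). Ccnd3 lay between 58.7 and 68.1 CPM in MI 7 d hearts, 63.0 and 72.1 CPM in MI 28 d hearts and 57.4 and 61.6 CPM in sham hearts. It passed the test only with library size alone, at adjusted p = 0.00204 at 7 d (range 0.00204 to 0.557) and 0.00422 at 28 d (range 0.00422 to 0.699). Within a library, where scaling plays no part, the ratio of Ccnd1 to Ccnd2 counts was 0.386 ± 0.0851 in MI 7 d hearts, 0.294 ± 0.00912 in MI 28 d hearts and 0.635 ± 0.0678 in sham hearts (SD, n = 3), with every infarct library below every sham library. Of the exon bases of Ccnd1, 23.4% overlap the opposite-strand gene LTO1.

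Cyclins G1 and G2 changed in opposite directions at 7 d. Ccng1 had 302, 285 and 255 CPM at MI 7 d, 897, 618 and 536 at MI 28 d and 1309.8, 1273 and 1331 in sham. It was 4.65-fold lower (log2 fold change -2.22 ± 0.18, edgeR adjusted p = 2.55e-06) at 7 d. Ccng1 was 1.91-fold lower (log2 fold change -0.93 ± 0.17, edgeR adjusted p = 0.00156) at 28 d. Set against 7 d, it was 2.44-fold higher (edgeR adjusted p = 2.14e-04) at 28 d, with the 3 groups apart. Ccng2, a cyclin linked to cell cycle arrest, had 26.8, 31.5 and 31.0 CPM at MI 7 d, 19.9, 16.8 and 20.8 at MI 28 d and 18.8, 18.1 and 15.6 in sham. It was 1.70-fold higher (log2 fold change 0.77 ± 0.12, edgeR adjusted p = 2.07e-04) at 7 d, and its MI 28 d values overlapped with sham (log2 fold change 0.13 ± 0.12, edgeR adjusted p = 0.365). The 28 d adjusted p of Ccng2 was 0.0303 with library size alone (range 0.0303 to 0.794). The ratio of Ccng1 to Ccng2 counts was 9.53 ± 1.57 in MI 7 d hearts, 35.9 ± 9.66 in MI 28 d hearts and 75.1 ± 8.69 in sham hearts.

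The members that fell most are set here beside the cardiomyocyte markers. As a percent of the sham mean, the summed level of the 10 markers was 22.3, 17.9 and 17.9 in MI 7 d hearts and 63.9, 50.6 and 39.2 in MI 28 d hearts, and 10 and 8 of the 10 markers were lower. Ccng1 stood at 23.2, 21.8 and 19.6 percent in MI 7 d hearts and 68.8, 47.3 and 41.1 percent in MI 28 d hearts. E2f6 stood at 29.6, 25.2 and 21.9 percent and 74.8, 64.5 and 52.7 percent, in the same order of groups. Ccnd1 stood at 42.6, 36.9 and 43.1 percent and 92.0, 88.6 and 71.1 percent. In the MI 28 d hearts the markers, Ccng1, E2f6 and Ccnd1 were all highest in replicate 1 and lowest in replicate 3, while Cdkn1c, at 64.3, 61.9 and 81.1 percent, was highest in replicate 3. The order differed in the MI 7 d hearts. There the markers, Ccng1 and E2f6 were highest in replicate 1 and Ccnd1 in replicate 3. Cdkn1c, at 37.4, 52.4 and 44.8 percent, was highest in replicate 2 of MI 7 d. The part of the cardiomyocyte markers in these results was not tested.

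**Figure D4:**
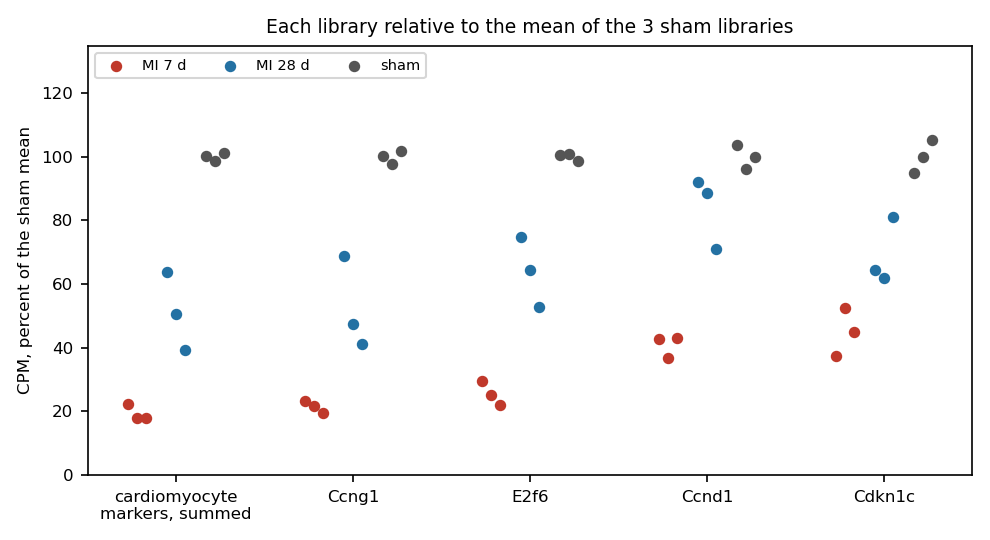
CPM of each library as a percent of the mean of the 3 sham libraries, for the sum of 10 cardiomyocyte markers and for Ccng1, E2f6, Ccnd1 and Cdkn1c, in MI 7 d (red), MI 28 d (blue) and sham (grey) hearts, with replicates 1, 2 and 3 from left to right. The MI 28 d points of the markers, Ccng1, E2f6 and Ccnd1 are highest in replicate 1 and lowest in replicate 3, and those of Cdkn1c are highest in replicate 3. At MI 7 d the markers, Ccng1 and E2f6 are highest in replicate 1, Ccnd1 in replicate 3 and Cdkn1c in replicate 2.

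Of the other cyclin-dependent kinases, Cdk6 changed most. Cdk6, a partner of the D cyclins, had 59.4, 70.7 and 64.8 CPM at MI 7 d, 33.5, 36.4 and 38.8 at MI 28 d and 23.6, 20.8 and 22.8 in sham. It was 2.90-fold higher (log2 fold change 1.54 ± 0.10, edgeR adjusted p = 6.39e-07) at 7 d. Cdk6 was 1.62-fold higher (log2 fold change 0.69 ± 0.10, edgeR adjusted p = 3.37e-04) at 28 d, with the groups apart. Cdk4, the other D cyclin partner, had 107, 93.5 and 93.1 CPM at MI 7 d, 57.6, 56.5 and 69.5 at MI 28 d and 54.9, 58.1 and 54.2 in sham. It was 1.75-fold higher (edgeR adjusted p = 3.63e-05) at 7 d. Cdk2, the partner of cyclins E and A, had 26.4, 25.0 and 21.7 CPM at MI 7 d, 15.1, 13.2 and 18.3 at MI 28 d and 14.3, 15.2 and 15.5 in sham. It was 1.63-fold higher (edgeR adjusted p = 8.24e-04) at 7 d. At 28 d neither passed, with log2 fold changes of 0.14 ± 0.10 for Cdk4 and 0.054 ± 0.13 for Cdk2, although Cdk4 reached an adjusted p of 0.0149 with library size alone (range 0.0149 to 0.949). Cdk6, Cdk4 and Cdk2 were 1.79-fold, 1.60-fold and 1.57-fold lower at 28 d than at 7 d (edgeR adjusted p between 6.66e-05 and 0.00219). The ratio of Cdk6 to Cdk4 counts was 0.670 ± 0.102 in MI 7 d hearts, 0.595 ± 0.0438 in MI 28 d hearts and 0.403 ± 0.0397 in sham hearts, without overlap between infarct and sham libraries. Of the exon bases of Cdk4, 19.7% overlap the opposite-strand gene Tspan31. Cdk7, the CDK-activating kinase that also serves in the transcription factor TFIIH, lay between 30.6 and 38.4 CPM in MI 7 d hearts, 30.4 and 35.4 CPM in MI 28 d hearts and 33.7 and 36.7 CPM in sham hearts. Its 7 d log2 fold change of -0.018 turned to 0.31 with library size alone (adjusted p = 0.0283, range 0.0283 to 0.943).

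Among the CIP/KIP inhibitors, which bind cyclin and CDK complexes, Cdkn1a and Cdkn1b rose at 7 d and Cdkn1c fell. Cdkn1a, the inhibitor switched on by p53, had 74.6, 67.6 and 58.8 CPM at MI 7 d, 44.5, 59.7 and 54.1 at MI 28 d and 35.7, 39.2 and 37.4 in sham. It was 1.79-fold higher (log2 fold change 0.84 ± 0.12, edgeR adjusted p = 1.44e-04) at 7 d. Cdkn1a was 1.41-fold higher (log2 fold change 0.50 ± 0.12, edgeR adjusted p = 0.00702) at 28 d, with every infarct library above every sham library. Of its exon bases, 7.68% overlap the opposite-strand gene AC167363.2. Cdkn1b had 38.1, 36.6 and 35.3 CPM at MI 7 d, 25.2, 29.9 and 33.0 at MI 28 d and 26.3, 27.9 and 29.6 in sham. It was 1.31-fold higher (edgeR adjusted p = 0.00654) at 7 d but not called at 28 d (log2 fold change 0.075 ± 0.10, edgeR adjusted p = 0.567), where it passed with library size alone (adjusted p = 0.0449, range 0.0449 to 0.900). Cdkn1c, an imprinted gene, had 7.98, 11.2 and 9.57 CPM at MI 7 d, 13.7, 13.2 and 17.3 at MI 28 d and 20.2, 21.3 and 22.5 in sham. It was 2.23-fold lower (log2 fold change -1.16 ± 0.15, edgeR adjusted p = 6.48e-05) at 7 d. Cdkn1c was 1.45-fold lower (log2 fold change -0.53 ± 0.15, edgeR adjusted p = 0.0126) at 28 d, and the groups did not overlap. Its 28 d call was lost with library size alone (log2 fold change -0.28, adjusted p = 0.172, range 0.00308 to 0.172). Within libraries the ratio of Cdkn1c to Cdkn1b counts was 0.262 ± 0.0487 in MI 7 d hearts, 0.503 ± 0.0550 in MI 28 d hearts and 0.765 ± 0.00553 in sham hearts. That of Cdkn1a to Cdkn1b was 1.82 ± 0.148, 1.80 ± 0.179 and 1.34 ± 0.0694. Of the exon bases of Cdkn1c, 30.7% overlap the antisense gene Gm44732.

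Between the infarct times all 3 CIP/KIP genes changed by less than 2-fold. Cdkn1a was 1.27-fold lower (edgeR adjusted p = 0.0335) at 28 d than at 7 d, Cdkn1b 1.25-fold lower (edgeR adjusted p = 0.0249) and Cdkn1c 1.54-fold higher (edgeR adjusted p = 0.00567). None of these calls held in every alternative. The adjusted p of Cdkn1a was 0.0727 to 0.118 without MI 7 d replicate 1, MI 7 d replicate 2, MI 28 d replicate 1 and the 3 Adipoq-rich libraries (range 0.0173 to 0.118). That of Cdkn1b was 0.0508 to 0.0697 without MI 7 d replicate 1, MI 7 d replicate 2, MI 28 d replicate 1 and MI 28 d replicate 2 (range 0.00525 to 0.0697). That of Cdkn1c was 0.0826 without the 3 Adipoq-rich libraries (range 0.00112 to 0.0826).

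The INK4 inhibitors block CDK4 and CDK6, and among them Cdkn2a and Cdkn2b had the largest 7 d fold changes of the 42 members. Cdkn2a passed the filter on low counts only through the MI 7 d hearts, where it was highest. Cdkn2b had 12.9, 14.3 and 8.22 CPM at MI 7 d, 3.85, 2.11 and 4.57 at MI 28 d and 0.959, 0.460 and 0.422 in sham. It was 19.02-fold higher (log2 fold change 4.25 ± 0.41, edgeR adjusted p = 8.97e-06) at 7 d. Cdkn2b was 5.66-fold higher (log2 fold change 2.501 ± 0.43, edgeR adjusted p = 0.00105) at 28 d, with the groups apart. Without the 3 Adipoq-rich libraries the 28 d log2 fold change was 1.75. Between the infarct times it was 3.36-fold lower (edgeR adjusted p = 0.00145) at 28 d, and the log2 fold change of -1.75 became -2.69 without those libraries. Cdkn2a, whose locus encodes both an INK4 inhibitor and the p53 activator ARF, had 52, 44 and 31 counts in MI 7 d hearts, 5, 3 and 23 counts in MI 28 d hearts and 2, 0 and 0 counts in sham hearts. Gene counts do not separate its products. The counts of Cdkn2a were summed in each group and divided by the group's summed TMM-scaled library totals. The ratio of these values was 35.1 at MI 7 d over sham (95% counting interval 9.52 to 293) and 10.9 at MI 28 d over sham (2.78 to 94.2). These intervals cover counting error only. The 7 d difference passed (edgeR adjusted p = 0.00112), and so did the 28 d one (0.0333). The adjusted p at 28 d was 0.0556 to 0.357 with only the libraries compared, with a replicate block, without sham replicate 2, sham replicate 3, MI 28 d replicate 3 and the 3 Adipoq-rich libraries (range 0.0160 to 0.357). Both sham counts were in replicate 1, and MI 28 d replicate 3 held most of the 28 d counts. The fitted log2 fold change, which depends on a small count added to each library, was 4.96 at 7 d and 3.26 at 28 d. It was 8.10 and 6.396 without sham replicate 1, and 2.00 at 28 d without MI 28 d replicate 3. Without the 3 Adipoq-rich libraries it was 1.53 at 28 d.

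Of the other pair of INK4 genes, Cdkn2c had 18.2, 14.7 and 27.0 CPM at MI 7 d, 17.6, 11.5 and 15.6 at MI 28 d and 11.3, 10.02 and 10.7 in sham. It was 1.87-fold higher (log2 fold change 0.90 ± 0.23, edgeR adjusted p = 0.00509) at 7 d. Its 28 d values were all above sham but did not pass (log2 fold change 0.48 ± 0.23, edgeR adjusted p = 0.104). The adjusted p was 0.0236 with library size alone, 0.0474 with only the libraries compared and 0.0485 without MI 28 d replicate 2 (range 0.0236 to 0.672). Set against 7 d, the 28 d value was not called either (log2 fold change -0.42 ± 0.22, edgeR adjusted p = 0.132) and reached 0.0418 without MI 7 d replicate 2 and 0.0333 without the 3 Adipoq-rich libraries (range 0.0333 to 0.539). Cdkn2d lay between 12.1 and 15.9 CPM in MI 7 d hearts, 12.9 and 18.2 CPM in MI 28 d hearts and 11.8 and 13.1 CPM in sham hearts. It passed in no comparison of the main test, though its 28 d adjusted p was 0.00511 with library size alone, 0.0161 without MI 28 d replicate 3 and 0.0229 without the 3 Adipoq-rich libraries (range 0.00511 to 0.243). Its 7 d adjusted p was 0.00916 with library size alone (range 0.00916 to 0.829). Cdkn2a differed between the infarct times in the main test (edgeR adjusted p = 0.0416), with a ratio of 0.311 at MI 28 d over MI 7 d (95% counting interval 0.203 to 0.464). The fitted log2 fold change of -1.70 became -2.96 without MI 28 d replicate 3, which held 23 of the MI 28 d counts, and -3.60 without the 3 Adipoq-rich libraries. The adjusted p of this call was 0.0516 to 0.114 with limma voom, without MI 7 d replicate 1, MI 7 d replicate 2, MI 28 d replicate 1 and MI 28 d replicate 2 (range 0.00129 to 0.114). Cdkn3, a phosphatase that removes the activating phosphate of CDK2, had 3.99, 2.23 and 2.69 CPM at MI 7 d, 0.597, 0.744 and 0.695 at MI 28 d and 0.785, 0.735 and 0.422 in sham. It was 4.56-fold higher (log2 fold change 2.19 ± 0.33, edgeR adjusted p = 2.08e-04) at 7 d, back among the sham values at 28 d (log2 fold change 0.074 ± 0.38, edgeR adjusted p = 0.880) and 4.33-fold lower (edgeR adjusted p = 3.90e-04) at 28 d than at 7 d.

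The activating E2F factors E2f1 and E2f2 rose and E2f3 was not called. E2f1 had 9.76, 10.8 and 10.96 CPM at MI 7 d, 5.17, 6.01 and 4.05 at MI 28 d and 1.66, 2.39 and 1.35 in sham. It was 5.85-fold higher (log2 fold change 2.55 ± 0.23, edgeR adjusted p = 5.45e-06) at 7 d. E2f1 was 2.82-fold higher (log2 fold change 1.498 ± 0.23, edgeR adjusted p = 6.34e-04) at 28 d, with the 3 groups apart. E2f2 had 8.65, 8.81 and 9.95 CPM at MI 7 d, 2.06, 2.36 and 1.68 at MI 28 d and 1.13, 1.84 and 1.52 in sham. It was 6.09-fold higher (log2 fold change 2.61 ± 0.21, edgeR adjusted p = 3.00e-06) at 7 d, while at 28 d the groups overlapped (log2 fold change 0.44 ± 0.23, edgeR adjusted p = 0.129). With library size alone the 28 d adjusted p of E2f2 was 0.0258 (range 0.0258 to 0.421). Both were lower at 28 d than at 7 d, E2f1 by 2.07-fold and E2f2 by 4.49-fold (edgeR adjusted p between 2.70e-05 and 0.00184). E2f3 lay between 16.6 and 21.2 CPM in MI 7 d hearts, 14.99 and 22.2 CPM in MI 28 d hearts and 18.3 and 21.1 CPM in sham hearts.

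The repressing E2F factors did not move as a group. E2f6, which represses without binding RB proteins, had 40.0, 34.1 and 29.7 CPM at MI 7 d, 101, 87.3 and 71.4 at MI 28 d and 136, 137 and 134 in sham. It was 3.91-fold lower (log2 fold change -1.97 ± 0.14, edgeR adjusted p = 1.33e-06) at 7 d. E2f6 was 1.56-fold lower (log2 fold change -0.64 ± 0.14, edgeR adjusted p = 0.00316) at 28 d. Set against 7 d, it was 2.501-fold higher (edgeR adjusted p = 5.32e-05) at 28 d, with no overlap. The atypical repressors E2f7 and E2f8, themselves E2F targets, rose at 7 d. E2f7 had 4.33, 3.76 and 4.14 CPM at MI 7 d, 1.39, 1.61 and 1.85 at MI 28 d and 2.01, 2.02 and 2.11 in sham. It was 1.99-fold higher (log2 fold change 0.99 ± 0.19, edgeR adjusted p = 9.07e-04) at 7 d. E2f8 had 5.38, 4.70 and 4.91 CPM at MI 7 d, 2.32, 1.92 and 1.04 at MI 28 d and 2.53, 2.67 and 1.94 in sham. It was 2.10-fold higher (log2 fold change 1.07 ± 0.27, edgeR adjusted p = 0.00537) at 7 d. Of its exon bases, 11.2% overlap the opposite-strand gene Gm2788. At 28 d neither was called (log2 fold change -0.33 ± 0.20, edgeR adjusted p = 0.228 for E2f7, and log2 fold change -0.44 ± 0.29, edgeR adjusted p = 0.227 for E2f8), though all 3 MI 28 d values of E2f7 lay below sham. Against 7 d they were 2.504-fold and 2.84-fold lower at 28 d (edgeR adjusted p = 2.81e-04 and 0.00125). E2f4, the main partner of the products of Rbl1 and Rbl2 in resting cells, lay between 33.1 and 36.9 CPM in MI 7 d hearts, 33.0 and 43.3 CPM in MI 28 d hearts and 35.3 and 41.2 CPM in sham hearts, and passed in no comparison.

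In the RB family, Rbl1 rose at 7 d while Rbl2 and Rb1 were lower by small amounts, and with library size alone Rb1 turned to above 0 and the call of Rbl2 was lost. Rbl1, itself an E2F target, had 11.3, 12.8 and 13.0 CPM at MI 7 d, 6.43, 7.38 and 6.54 at MI 28 d and 7.59, 6.07 and 6.93 in sham. It was 1.80-fold higher (log2 fold change 0.85 ± 0.13, edgeR adjusted p = 2.51e-04) at 7 d and 1.82-fold lower (edgeR adjusted p = 4.20e-04) at 28 d than at 7 d, with no difference called at 28 d against sham (log2 fold change -0.016 ± 0.14, edgeR adjusted p = 0.928). Rbl2, found mostly in resting cells, had 50.4, 62.3 and 58.9 CPM at MI 7 d, 77.9, 70.0 and 69.0 at MI 28 d and 69.1, 71.5 and 79.4 in sham. It was 1.28-fold lower (log2 fold change -0.36 ± 0.10, edgeR adjusted p = 0.00740) at 7 d, a call lost with library size alone (log2 fold change -0.022, adjusted p = 0.842, range 0.00127 to 0.842). Rb1, the retinoblastoma gene, had 29.8, 38.5 and 36.6 CPM at MI 7 d, 33.1, 39.6 and 34.8 at MI 28 d and 44.8, 43.6 and 38.9 in sham. It was 1.21-fold lower (log2 fold change -0.28 ± 0.11, edgeR adjusted p = 0.0477) at 7 d, but with library size alone the log2 fold change turned to 0.056. The adjusted p was 0.0506 to 0.701 with library size alone, with no filter, with the stricter filter, with only the libraries compared, without sham replicate 1, sham replicate 2, MI 7 d replicate 1 and MI 7 d replicate 3 (range 0.0213 to 0.701). At 28 d Rb1 (log2 fold change -0.24 ± 0.11, edgeR adjusted p = 0.0975) and Rbl2 (log2 fold change -0.020 ± 0.10, edgeR adjusted p = 0.876) were not called. Rbl2 was 1.26-fold higher (edgeR adjusted p = 0.0142) at 28 d than at 7 d, and that adjusted p was 0.0537 to 0.0926 with library size alone, with only the libraries compared, without MI 28 d replicate 1 and the 3 Adipoq-rich libraries (range 0.00774 to 0.0926). On the opposite strand, Rcbtb2 and Lpar6 overlap 8.11% and 6.78% of the exon bases of Rb1, and Gm45464 and Aktip overlap 11.8% and 9.17% of those of Rbl2.

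At 7 d Trp53 was higher, and its inhibitor Mdm2 was lower with TMM scaling but not with library size alone. Trp53 had 49.0, 43.4 and 47.7 CPM at MI 7 d, 31.5, 36.5 and 42.1 at MI 28 d and 29.8, 27.1 and 25.8 in sham. It was 1.69-fold higher (log2 fold change 0.76 ± 0.11, edgeR adjusted p = 1.74e-04) at 7 d. Trp53 was 1.33-fold higher (log2 fold change 0.41 ± 0.11, edgeR adjusted p = 0.0123) at 28 d, without overlap with sham, and 1.27-fold lower (edgeR adjusted p = 0.0232) at 28 d than at 7 d. The 28 d call had an adjusted p of 0.0584 without sham replicate 3 (range 0.00258 to 0.0584). For the call between infarct times it was 0.0586 to 0.0697 without MI 7 d replicate 1, MI 7 d replicate 3, MI 28 d replicate 1 and MI 28 d replicate 2 (range 0.00297 to 0.0697). Mdm2, a ubiquitin ligase for p53 and a p53 target, had 54.0, 57.1 and 51.9 CPM at MI 7 d, 76.2, 71.5 and 66.3 at MI 28 d and 70.6, 66.3 and 66.0 in sham. It was 1.24-fold lower (log2 fold change -0.31 ± 0.075, edgeR adjusted p = 0.00360) at 7 d, which turned to a log2 fold change of 0.020 with library size alone (adjusted p = 0.791, range 2.37e-04 to 0.791). At 28 d it was not called (log2 fold change 0.077 ± 0.075, edgeR adjusted p = 0.401) except with library size alone (adjusted p = 0.00252, range 0.00252 to 0.838), and it was 1.31-fold higher (edgeR adjusted p = 0.00162) at 28 d than at 7 d. The ratio of Cdkn1a to Mdm2 counts, both p53 targets, was 1.23 ± 0.131 in MI 7 d hearts, 0.745 ± 0.140 in MI 28 d hearts and 0.555 ± 0.0440 in sham hearts.

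Wee1, the kinase that keeps CDK1 off by tyrosine phosphorylation, was called against sham at 28 d and not at 7 d. It had 13.5, 14.7 and 14.7 CPM at MI 7 d, 33.9, 32.9 and 44.3 at MI 28 d and 16.6, 13.7 and 13.8 in sham. MI 7 d values overlapped with sham (log2 fold change -0.037 ± 0.14, edgeR adjusted p = 0.816), while at 28 d it was 2.52-fold higher (log2 fold change 1.34 ± 0.13, edgeR adjusted p = 7.52e-05) than sham and 2.59-fold higher (log2 fold change 1.37 ± 0.13, edgeR adjusted p = 3.33e-05) than at 7 d. The CDC25 phosphatases undo this phosphorylation. Cdc25b had 19.1, 21.5 and 19.6 CPM at MI 7 d, 11.5, 13.8 and 15.4 at MI 28 d and 4.54, 5.24 and 4.98 in sham. It was 4.08-fold higher (log2 fold change 2.03 ± 0.13, edgeR adjusted p = 9.11e-07) at 7 d. Cdc25b was 2.76-fold higher (log2 fold change 1.47 ± 0.14, edgeR adjusted p = 4.81e-05) at 28 d, with the groups apart. Cdc25c had 53, 34 and 42 counts in MI 7 d hearts, 5, 5 and 8 counts in MI 28 d hearts and 3, 5 and 1 counts in sham hearts. It was 7.69-fold higher (log2 fold change 2.94 ± 0.44, edgeR adjusted p = 1.93e-04) at 7 d, a log2 fold change that became 3.54 without sham replicate 2. Cdc25c passed the filter on low counts only through the MI 7 d hearts, where it was highest. It was not called at 28 d (log2 fold change 0.47 ± 0.54, edgeR adjusted p = 0.475). Of its exon bases, 12.7% overlap the opposite-strand gene Gm3550. Cdc25a, which acts at the start of S phase, had 11.7, 12.2 and 10.3 CPM at MI 7 d, 9.62, 8.00 and 7.12 at MI 28 d and 11.3, 9.56 and 9.71 in sham. It was not called at 7 d (log2 fold change 0.16 ± 0.14, edgeR adjusted p = 0.329) or at 28 d (log2 fold change -0.31 ± 0.15, edgeR adjusted p = 0.100). It passed at 7 d only with library size alone (adjusted p = 0.00609, range 0.00609 to 0.569) and at 28 d only without MI 28 d replicate 1 (adjusted p = 0.0270, range 0.0270 to 0.674). Between the infarct times all 3 phosphatases were lower at 28 d, by 1.39-fold for Cdc25a, 1.48-fold for Cdc25b and 5.54-fold for Cdc25c (edgeR adjusted p between 5.82e-04 and 0.0192). That of Cdc25a was 0.0518 without MI 7 d replicate 1, 0.0627 without MI 7 d replicate 2 and 0.0533 without MI 28 d replicate 2 (range 0.00499 to 0.0627).

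The checkpoint kinases parted at 28 d. Chek1, the kinase of stalled DNA copying, had 2.55, 2.13 and 1.68 CPM at MI 7 d, 1.26, 1.74 and 1.56 at MI 28 d and 0.436, 1.01 and 0.422 in sham. It was 3.40-fold higher (log2 fold change 1.77 ± 0.36, edgeR adjusted p = 0.00151) at 7 d. Chek1 was 2.45-fold higher (log2 fold change 1.29 ± 0.38, edgeR adjusted p = 0.0159) at 28 d, and the infarct groups overlapped with each other (log2 fold change -0.48 ± 0.32, edgeR adjusted p = 0.226). Its 28 d adjusted p was 0.0631 without sham replicate 1 and 0.0645 without sham replicate 3 (range 0.00509 to 0.0645). Chek2, the kinase that answers DNA breaks, had 11.6, 10.9 and 12.02 CPM at MI 7 d, 5.97, 3.84 and 5.27 at MI 28 d and 8.55, 8.92 and 7.01 in sham. It was 1.41-fold higher (log2 fold change 0.50 ± 0.17, edgeR adjusted p = 0.0233) at 7 d. Chek2 was 1.62-fold lower (log2 fold change -0.70 ± 0.18, edgeR adjusted p = 0.00840) at 28 d, with all MI 28 d libraries below and all MI 7 d libraries above the sham libraries. The direct comparison gave 2.29-fold lower (log2 fold change -1.20 ± 0.17, edgeR adjusted p = 3.21e-04) at 28 d than at 7 d. The 7 d call had an adjusted p of 0.0944 without sham replicate 3, 0.0528 without MI 7 d replicate 1 and 0.0642 without MI 7 d replicate 3 (range 0.00157 to 0.0944). For the 28 d call it was 0.0508 with library size alone (range 0.00152 to 0.0508).

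The wider cell cycle network was read from 7 lists of 155 other genes, of which 148 passed the filter. Their counts stand beside the 39.0% of all tested genes that were higher and 35.4% lower at 7 d, the 29.5% and 25.6% at 28 d, and medians over all tested genes of 0.064 and 0.054. Of 18 proliferation markers, 17 were higher and 1 lower at 7 d, and 12 higher and 0 lower at 28 d, with median log2 fold changes of 1.81 and 0.75. The lower one was Cenpa, a centromere histone, with 20.1 ± 3.76 CPM in MI 7 d hearts against 32.2 ± 0.852 CPM in sham hearts (edgeR adjusted p = 0.00149). Birc5, the mitotic protein survivin, had 10.4 ± 3.16 CPM in MI 7 d hearts against 1.08 ± 0.176 CPM in sham hearts, 9.53-fold higher (edgeR adjusted p = 3.32e-06), and Bub1, a spindle checkpoint kinase, 6.34 ± 0.767 CPM in MI 7 d hearts against 0.728 ± 0.175 CPM in sham hearts, 8.61-fold higher (5.37e-06). Rrm2, a subunit of ribonucleotide reductase, had 8.27 ± 2.65 CPM in MI 28 d hearts against 3.43 ± 0.502 CPM in sham hearts, 2.41-fold higher (0.00181). The ratio of Cdk1 to Mki67 counts was 0.270 ± 0.0222 in MI 7 d hearts, 0.242 ± 0.110 in MI 28 d hearts and 0.176 ± 0.0607 in sham hearts, with 0.368 in MI 28 d replicate 3 alone. That of Ccnb1 to Mki67 was 0.138 ± 0.0163, 0.105 ± 0.0177 and 0.0960 ± 0.0139.

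**Figure D5:**
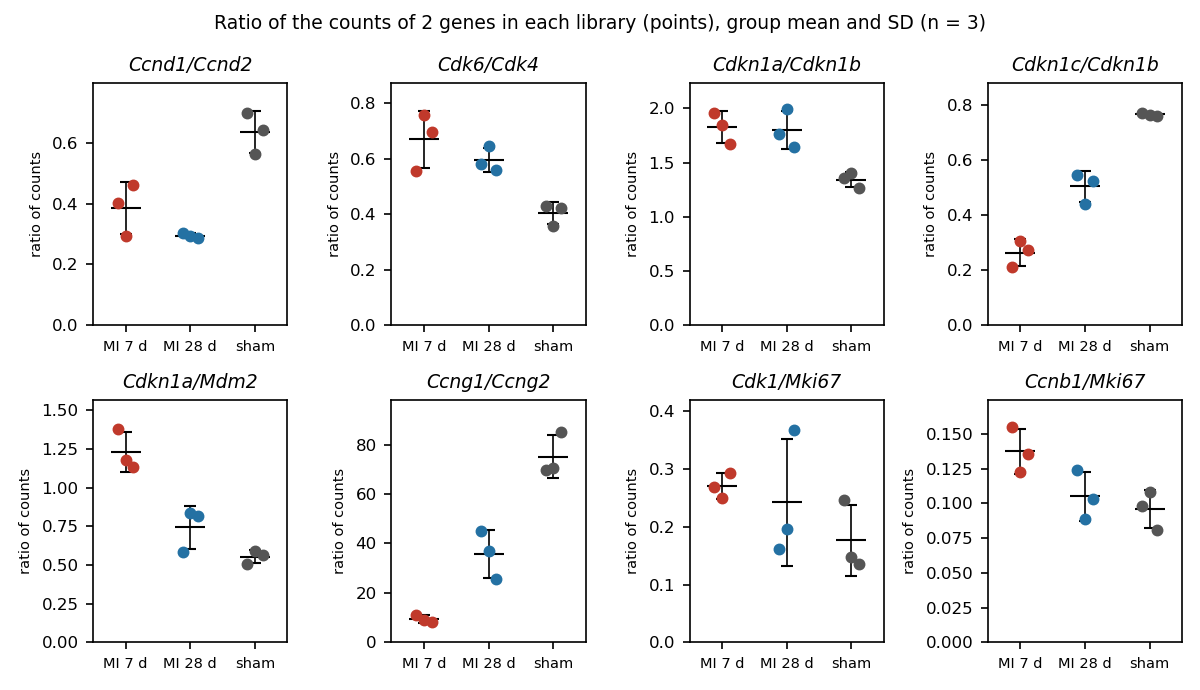
Ratio of the counts of 2 genes in each library (points) of MI 7 d, MI 28 d and sham hearts, with the group mean and SD (n = 3) and axes that start at 0. A ratio within a library does not depend on how libraries are scaled. Ccnd1/Ccnd2, Cdkn1c/Cdkn1b and Ccng1/Ccng2 are highest in sham hearts, and Cdk6/Cdk4, Cdkn1a/Cdkn1b and Cdkn1a/Mdm2 have lower means in sham hearts than in both infarct groups.

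Among 12 DREAM, MuvB and E2F partner genes, 6 were higher and 3 lower at 7 d, and 1 higher and 1 lower at 28 d (medians 0.21 and 0.25). Foxm1, the forkhead activator of mitotic genes, had 13.5 ± 1.89 CPM in MI 7 d hearts against 2.93 ± 0.677 CPM in sham hearts (4.61-fold higher, edgeR adjusted p = 1.27e-05), and Mybl2, the MuvB partner B-MYB, 3.91 ± 0.641 CPM in MI 7 d hearts against 0.907 ± 0.0305 CPM in sham hearts (4.29-fold higher, 2.07e-05). Tfdp2, a dimer partner of E2F factors, was 2.21-fold lower (2.45e-06), and Mybl1 was the 1 gene called higher at 28 d, 4.33-fold (1.97e-04). Of 25 CDK accessory and cyclin turnover genes, 11 were higher and 7 lower at 7 d, and 6 and 5 at 28 d (medians 0.14 and 0.024). Cks2, a small CDK-binding subunit, was 10.6-fold higher at 7 d (4.47e-06) and 4.14-fold higher at 28 d (5.39e-04). Fbxo31 and Fbxw7, F-box subunits that mark cyclins for degradation, were 4.21-fold and 3.26-fold lower at 7 d (4.02e-07 and 4.41e-07), and 2.36-fold and 2.41-fold lower at 28 d (4.90e-05 and 1.88e-05). The 28 other cyclins and CDKs split into 11 higher and 10 lower at 7 d and 9 and 8 at 28 d (medians 0.069 and 0.060). Cdk14 was 4.06-fold higher at 7 d (4.08e-07) and 1.87-fold higher at 28 d (2.38e-04), and Ccnjl was 4.63-fold and 8.28-fold lower (2.51e-04 and 2.14e-04).

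Of 27 p53 target genes, 14 were higher and 10 lower at 7 d, and 10 and 7 at 28 d (medians 0.67 and 0.21). Pmaip1, a pro-apoptotic BH3 protein, was 13.5-fold higher at 7 d (1.92e-05) and 6.15-fold at 28 d (7.68e-04). Phlda3 was 4.16-fold higher at 28 d (1.08e-06), and Tigar, a regulator of glycolysis, was 4.31-fold lower at 7 d (3.22e-06) and 1.63-fold at 28 d (0.00623). Damage signalling genes and p53 regulators gave 5 higher and 5 lower of 17 at 7 d and 4 and 1 at 28 d (medians 0.067 and 0.17). Clspn, a cofactor of CHK1, was 5.98-fold and 1.85-fold higher (1.11e-05 and 0.0197), and Brca1 5.73-fold and 2.46-fold higher (2.06e-05 and 0.00423). Of 21 MYC and growth signal regulators, 9 were higher and 6 lower at 7 d, and 6 and 2 at 28 d (medians -0.13 and 0.10). Myc had 18.5 ± 3.20 CPM in MI 7 d hearts against 3.52 ± 0.536 CPM in sham hearts and 23.4 ± 4.88 CPM in MI 28 d hearts against 3.52 ± 0.536 CPM in sham hearts, 5.25-fold and 6.66-fold higher (4.40e-06 and 1.84e-05), and Mycn was 5.13-fold and 3.42-fold lower (7.11e-06 and 1.97e-04). All these p-values are adjusted over all genes in the edgeR fit. With library size alone, the counts over the 7 lists at 28 d became 87 higher and 14 lower, against 48 and 24 with TMM.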

How the data were processed

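Total RNA of mouse hearts was made into 9 libraries with a KAPA RNA HyperPrep kit, per the labels' protocols. The authors deposited whole-number counts per gene, and the submitters' processing notes name Trim Galore, STAR, featureCounts and mm10. No version is named there, and neither strand nor multi-mapped reads are spoken of, so opposite-strand overlaps of members are given in the text. 

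Counts were tested with edgeR 4.0.16 (R 4.3.3, limma 3.58.1) by glmQLFit and glmQLFTest on all 9 libraries with 1 coefficient per group, TMM scaling, filterByExpr by group (minimum count 10, minimum total 15) and Benjamini-Hochberg adjustment over 14347 genes, with 0.05 as the threshold. Standard errors are the log2 fold change divided by the square root of the test's F value. Totals of 12351525 to 19238101 counts per library leave genes below about 1 CPM with few counts, and intervals cover counting error only. Replicates of 1 group differed by more than sampling noise, least among sham hearts (chi-square per degree of freedom 1.67 to 1.80 in sham, 18.8 to 29.3 in MI 7 d and 31.4 to 71.2 in MI 28 d hearts), so all 9 libraries were kept. The groups share 1 estimate of the spread of each gene, so calls between the infarct times also rest on the sham libraries. With only the libraries compared, 3111 genes were higher and 3572 lower between the infarct times, against 4173 and 3747 in the main test. Of the members, 7 were higher and 25 lower, against 8 and 25. Alternatives were DESeq2 1.42.0, its size factors, unscaled library totals (library size alone), dropping the filter, a tighter one that asked for a mean of 2 CPM and for 1 CPM in at least 3 libraries, only the libraries compared, a replicate block, limma voom with group weights and leaving out each library. Leaving out the 3 libraries above 100 CPM of Adipoq was added after seeing the data. The members and lists were chosen with earlier results of these data known. Every member is named: those past the threshold in at least 1 comparison with their value in each library and the other 6 with ranges. Of each other list, only genes among the 2 largest rises and 2 largest falls past the threshold against sham are named. Protein sequences were not used here.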

Additional observations from a re-analysis of the deposited data

Results flagged for a closer look

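Ccnd2 and Chek2 stood out because they were called against sham at both 7 d and 28 d, in opposite directions, and the direct comparison of the infarct times passed. Ccnd2 was 1.39 higher at 28 d than at 7 d on the log2 scale (309 ± 34.3 CPM in MI 28 d and 118 ± 17.5 CPM in MI 7 d hearts, SD, n = 3, edgeR adjusted p = 2.51e-05), and its 7 d fall against sham was lost with library size alone. Chek2 had a log2 fold change of -1.20 at 28 d against 7 d (5.03 ± 1.08 CPM in MI 28 d and 11.5 ± 0.548 CPM in MI 7 d hearts, edgeR adjusted p = 3.21e-04), with all 3 MI 28 d libraries below and all 3 MI 7 d libraries above the sham libraries. Its 7 d call against sham was lost without sham replicate 3, MI 7 d replicate 1 or MI 7 d replicate 3 (edgeR adjusted p 0.0528 to 0.0944). The 28 d call of Chek2 against sham was lost with library size alone (edgeR adjusted p = 0.0508). Groups of 3 libraries are too small for a test of single libraries that stand apart.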

How the results depend on the processing

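Counts of members called higher and lower moved by at most 1.5 times in every alternative except library size alone. There the counts became 4 lower at 7 d (8 in the main test), 23 higher and 2 lower at 28 d (14 and 4), and over the other lists 87 higher and 14 lower at 28 d (48 and 24). Leaving out 1 library at a time gave 25 to 26 members higher and 7 to 8 lower at 7 d, 10 to 14 and 4 to 6 at 28 d, and 7 to 8 and 19 to 25 between the infarct times. Of all 14347 tested genes, 5101 to 5363 were then higher and 4721 to 4932 lower at 7 d. At 28 d these were 3343 to 4345 and 3166 to 3825, and between the infarct times 3737 to 4254 and 3262 to 4213. Of the members called, 29 of 34 at 7 d, 11 of 18 at 28 d and 25 of 33 between the infarct times were called in every alternative. The share of all called genes that kept their call in every alternative is not given here. The direction turned with library size alone for Cdk7 (log2 fold change 0.31), Rb1 (0.056) and Mdm2 (0.020) at 7 d. Another 54 sign changes fell on values that passed in neither fit.

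The replicate numbers were not seen to pair the libraries: correlations of same-numbered deviations lay between -0.025 and 0.021 for infarct against sham and were -0.091, 0.26 and 0.30 between the infarct groups, and not every library correlated best with its own number. With so few libraries a group, these correlations cannot exclude a pairing. With a replicate block, 26 members were higher and 8 lower at 7 d, 13 and 4 at 28 d and 8 and 25 between the infarct times, and the call lost was Cdkn2a at 28 d (adjusted p = 0.0556, range over alternatives 0.0160 to 0.357). Of all 14347 tested genes, the replicate block gave 5554 higher and 5029 lower at 7 d, and 4082 and 3606 at 28 d. Between the infarct times it gave 4116 and 3669. The stricter filter left 37 of the 42 members, so counts there are out of 37. The planned comparison of protein sequences was not run. Sham levels of the mitotic genes rest on few counts (7 to 10 a library for Ccnf), and a difference that missed the threshold is not shown to be absent.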
